A study of Mus musculus with 18 samples.

Results

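The core ac4C regions of the mouse hippocampus are the stretches of mRNA that carried a listed N4-acetylcytidine (ac4C) peak in every mouse of the study, 5×FAD and WT alike. The mice were 3 5×FAD animals and 3 WT animals aged 6 months, and each replicate is called a mouse here and named by the number in its label. 5×FAD mice carry human transgenes with mutations of familial Alzheimer disease, APP among them, on a C57BL/6J background. The mouse Thy-1 promoter, which is active mainly in neurons, is stated for APP. WT mice lack the transgenes. Neither the sex of the mice at this age nor whether a sample pooled several animals is given in the sources used here, so p-values measure only the spread between these samples. From each hippocampus, fragmented RNA was captured with an anti-ac4C antibody (acRIP-seq) and sequenced beside an input library and an IgG capture, and 1 table of ac4C peaks per mouse was analysed. Peaks of the 6 tables that shared at least 1 bp of 1 strand were merged. This gave 20038 regions, of which 1730 were chosen by the presence of a peak in all 6 mice. These core regions lay on 1337 of the 7598 genes with a peak in any mouse. The value of a region in a mouse is the highest fold enrichment (FE), the ratio of captured to input signal, among its peaks there.

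ac4C is an acetylated cytidine that the acetyltransferase NAT10 writes into RNA. It is well established in 18S rRNA and in some tRNAs, and in mRNA it has been linked to transcript stability and to translation. In neurons much of protein synthesis takes place near synapses, so marks on the mRNAs of synaptic proteins are of interest there. A peak from this assay marks a stretch of RNA and not a single cytidine.

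The sequences of a few core regions show what such a stretch looks like. They lie wholly in coding sequence and are at most 300 bases long, and they were chosen after their values were seen. The first 4 have the highest mean FE among core regions of that kind. They belong to Tenm4, a teneurin of synaptic adhesion, to the forkhead transcription factors Foxp1 and Foxj2, and to Magi2, a scaffold of synaptic membranes. Letters are read from the RefSeq copy of GRCm38.p6, the assembly behind the build mm10 of the tables, on the transcript strand and 5′ to 3′. Capitals mark the longest run in which cytosines stand 3 bases apart, a spacing of the kind that has been described around ac4C in human mRNA (the first such run where runs tie).
Tenm4: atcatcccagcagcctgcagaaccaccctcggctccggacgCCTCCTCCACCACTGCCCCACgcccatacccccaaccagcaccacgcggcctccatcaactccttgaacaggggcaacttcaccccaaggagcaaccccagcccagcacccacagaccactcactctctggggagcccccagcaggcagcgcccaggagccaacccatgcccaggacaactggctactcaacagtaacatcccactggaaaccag
Foxp1: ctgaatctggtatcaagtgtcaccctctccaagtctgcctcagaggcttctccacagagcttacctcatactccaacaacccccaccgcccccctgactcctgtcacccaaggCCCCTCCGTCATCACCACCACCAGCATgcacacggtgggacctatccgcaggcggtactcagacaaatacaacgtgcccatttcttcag
Foxj2: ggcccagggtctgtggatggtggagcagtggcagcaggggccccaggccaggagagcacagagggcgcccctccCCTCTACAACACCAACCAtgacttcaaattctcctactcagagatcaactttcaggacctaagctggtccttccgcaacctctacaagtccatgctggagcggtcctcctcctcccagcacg
Magi2: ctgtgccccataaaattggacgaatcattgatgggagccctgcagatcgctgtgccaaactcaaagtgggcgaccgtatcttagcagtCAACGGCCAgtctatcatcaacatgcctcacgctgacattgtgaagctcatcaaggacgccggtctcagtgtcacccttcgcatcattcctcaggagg
The 3 lowest of the same kind belong to Syne1, a nuclear envelope protein, to Ogdhl, an enzyme related to oxoglutarate dehydrogenase, and to Faf2, a factor of protein degradation at the endoplasmic reticulum.
Syne1: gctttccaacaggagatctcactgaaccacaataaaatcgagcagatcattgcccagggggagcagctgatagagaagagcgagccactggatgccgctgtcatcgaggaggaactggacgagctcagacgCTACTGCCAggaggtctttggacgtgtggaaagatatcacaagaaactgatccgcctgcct
Ogdhl: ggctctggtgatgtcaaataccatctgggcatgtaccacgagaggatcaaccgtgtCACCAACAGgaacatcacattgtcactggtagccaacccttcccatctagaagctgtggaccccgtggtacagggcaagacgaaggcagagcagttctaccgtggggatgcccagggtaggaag
Faf2: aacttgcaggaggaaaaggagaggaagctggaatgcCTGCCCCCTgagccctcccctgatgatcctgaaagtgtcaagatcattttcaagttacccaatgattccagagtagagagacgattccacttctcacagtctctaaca
Cytosine made up 44.9%, 40.1%, 34.7% and 29.0% of the 4 high regions (Tenm4, Foxp1, Foxj2 and Magi2), and 24.5%, 26.1% and 25.7% of the 3 low regions (Syne1, Ogdhl and Faf2). The longest run held 7, 9, 6 and 3 cytosines in the high regions and 3 in each of the low ones. Magi2 therefore stood among the strongest regions with a run no longer than those of the weakest. The regions lie at chr7:96694770-96695025 (Tenm4, + strand), chr6:98945534-98945735 (Foxp1, − strand), chr6:122833681-122833876 (Foxj2, + strand) and chr5:20600778-20600963 (Magi2, + strand). The weak ones lie at chr10:5048724-5048915 (Syne1, − strand), chr14:32337442-32337621 (Ogdhl, + strand) and chr13:54656282-54656425 (Faf2, + strand). Each belongs to the coding class of the tables.

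The same contrast held over many regions. Among the 528 core regions that are wholly coding and at most 300 bases long, the 50 with the highest mean FE had a median of 35.4% cytosine and the 50 with the lowest 27.7%. Guanine went the other way, with medians of 21.8% and 26.4%. The motif CNNCNNCNNCNN, which is 4 cytosines spaced 3 bases apart, was present on the transcript strand in 80% of the 50 highest, 48% of the 50 lowest and 70.8% of all 528. These are descriptions of sequence over regions, which are not replicates, so no test was made.

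Cytosine content also rose with the number of mice in which a region was found, a property of sequence that did not enter the choice. The median was 31.7% in the core regions (quartiles 27.4% and 36.0%). It was 29.99%, 29.9%, 29.0%, 28.4% and 26.6% in regions found in 5, 4, 3, 2 and 1 mice. Guanine did not follow this order, with a median of 25.8% in the core and 27.2%, 27.2%, 27.5%, 27.8% and 26.6% in the other classes. Of the regions of a single mouse, 1794 were found in 5×FAD 3 alone, with a cytosine median of 24.0%, which lowers the value of that class. The cytosine medians of regions found in any other mouse alone ran from 26.6% to 28.3%. Within coding exons alone the cytosine median was 31.6% in 858 core regions and 26.2% in 3946 regions of a single mouse. Among regions of 150 to 300 bp the motif was present on the transcript strand in 86.3% of 575 core regions, against 71.0% of 2240 regions of a single mouse and 76.6% of all 6514 regions of that length. On the opposite strand these shares were 63.1%, 68.1% and 69.8%, so the excess lay on the transcript strand. A match is a description and not a modified site. Core regions were also longer, with a median of 276 bp against 195 bp in regions of a single mouse.

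**Figure D1:**
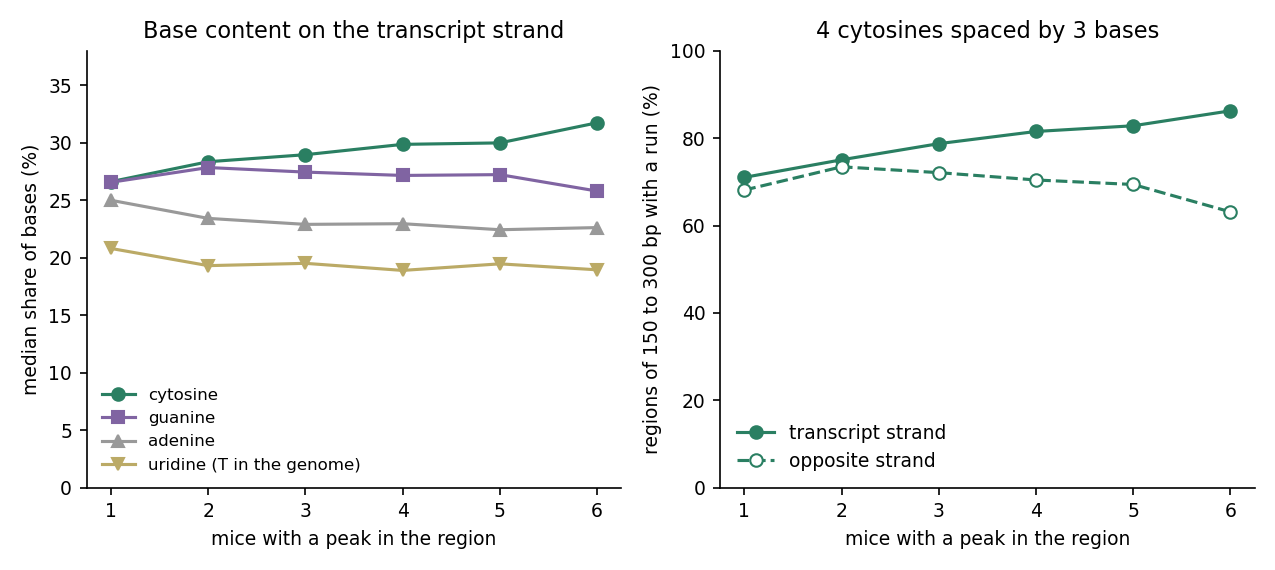
Base content of merged regions by the number of mice with a peak (x axis, 1 to 6, where 6 is the core). The left panel plots the median percent of each base on the transcript strand, and cytosine ends at 31.7% in the core and starts at 26.6% in regions of a single mouse while guanine ends at 25.8% and starts at 26.6%. The right panel plots the percent of regions of 150 to 300 bp that hold 4 cytosines spaced 3 bases apart, which ends at 86.3% on the transcript strand and at 63.1% on the opposite strand.

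Core regions followed exons. In 1349 of the 1730 regions every peak had the same start and end in all mice, and 1711 held exactly 1 peak per mouse. A start on an exon start of the GENCODE annotation was found for 90.2% of them and an end on an exon end for 90.8%, so a region places the mark within an exon but at no single base. By the class of their highest peak, 858 regions (49.6%) lay in coding exons, 367 in exons with the start codon, 317 in exons with the stop codon, 149 in 5′ UTR exons and 39 in 3′ UTR exons. Coding and start codon exons made up 49.6% and 21.2% of the core, against 56.8% and 13.7% of regions of a single mouse. Start codon and 5′ UTR core regions were the richest in GC, with medians of 68.9% and 70.1%, against 56.2% in coding exons and 47.4% in the 3′ UTR.

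In most regions found in 4 mice, the 2 mice that lacked a peak shared a mouse number and not a genotype. Each number, 1 to 3, is carried by 1 mouse of each genotype, and the labels do not say what it marks. Of the 3114 regions found in exactly 4 mice, 2369 (76.1%) lacked the 5×FAD and the WT mouse of the same number. Those 2369 fell in 3 of the 15 possible pairs of missing mice. Both mice numbered 3 were missing in 942 regions, both numbered 1 in 747 and both numbered 2 in 680, while no other pair was missing in more than 178. Likewise, 2285 of the 4496 regions found in 2 mice (50.8%) were found in the 2 mice of 1 number, in 836, 815 and 634 regions for numbers 1, 2 and 3. The next pair was of 1 genotype, 5×FAD 1 with 5×FAD 2, in 522 regions. Of the regions found in 3 mice, 238 were in all 5×FAD mice only and 47 in all WT mice only. In regions that lacked a number the median mean FE over the mice with a peak was 10.4, and 1033 of them reached the core median of 11.4. By number, the median was 12.01, 11.98 and 8.25 in regions that lacked numbers 1, 2 and 3. Where number 3 was lacking, the mean leaves out 5×FAD 3, the mouse with the highest core median (16.9). These medians are therefore not like for like. The study's text names an exclusion of peaks that overlapped IgG peaks, and whether the tables were made before or after it is not settled, so a missing peak does not show a missing signal. The part of this filter in the pattern was not tested. Outside the core, 3947 regions had a mean FE, over the mice with a peak, at or above the core median, and 767 of them were found in 5×FAD 3 alone.

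**Figure D2:**
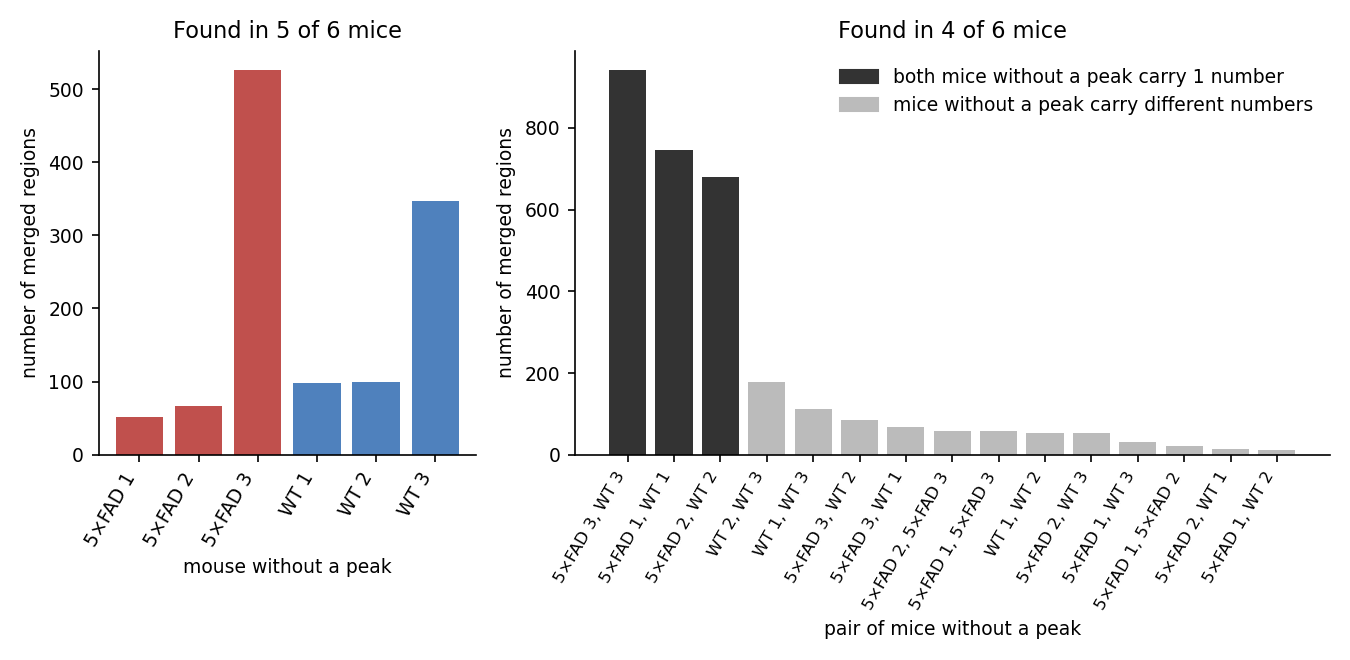
Number of merged regions (y axis) that narrowly missed the core, by the mice without a peak (x axis). On the left, of the regions found in 5 mice, 526 lacked only 5×FAD 3 and 347 lacked only WT 3. On the right, of the regions found in 4 mice, the 3 dark bars are pairs with the same number, with 942, 747 and 680 regions, and every other pair has at most 178.

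The regions just outside the rule were the 1189 found in 5 mice. In 526 of them the missing mouse was 5×FAD 3, in 66 5×FAD 2 and in 52 5×FAD 1, against 347 for WT 3, 100 for WT 2 and 98 for WT 1. Their median FE was 8.49, 7.98 and 13.5 in 5×FAD mice 1, 2 and 3, and 7.23, 6.71 and 6.18 in WT mice 1, 2 and 3, below that of the core in every mouse. The rule chose by the presence of peaks, so this is given as a description only.

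The median FE of the core regions was 11.9, 11.0 and 16.9 in 5×FAD mice 1, 2 and 3, against 9.77, 9.35 and 7.68 in WT mice 1, 2 and 3. The genotypes did not overlap, with means of 13.3 ± 3.15 and 8.93 ± 1.10 (SD, n = 3 each, two-sided exact permutation p = 0.1, the smallest that 3 against 3 can give). The difference of 4.34 was 2.54 without 5×FAD 3. The tables carry no scaling between mice and no read counts, so depth is unknown and a difference in scale between tables enters this comparison. Core peaks made up 17.0%, 17.3% and 20.5% of all peaks listed in the 5×FAD mice and 20.7%, 21.9% and 23.3% in the WT mice, which listed fewer peaks in all. The number of core peaks (1734 to 1741 in 5×FAD, 1732 to 1735 in WT) and their exon class shares are held near 1 value per mouse by the rule, so no test of them is read.

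**Figure D3:**
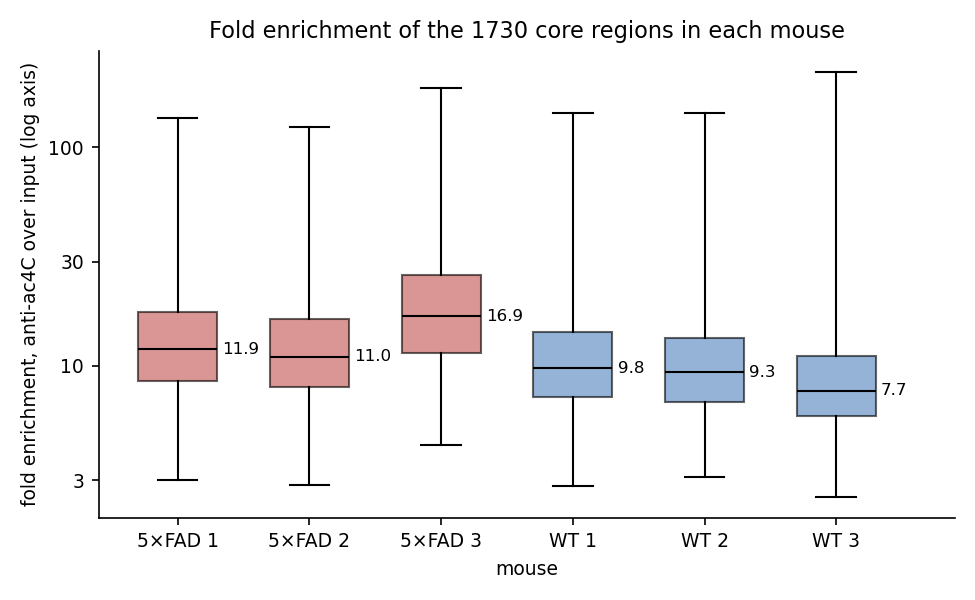
Fold enrichment of the 1730 core regions (y axis, log scale) in each mouse (x axis), 5×FAD in red and WT in blue. Boxes span the quartiles, the line and the printed value are the median, and whiskers reach the lowest and highest region. The medians run from 11.0 to 16.9 in 5×FAD and from 7.68 to 9.77 in WT.

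1 mouse differed from the others in which core regions were strong. On log2 FE, 5×FAD 3 correlated with the other 5 mice at 0.581 to 0.613 over the 1730 regions (Pearson), while all other pairs, within and between genotypes, ranged from 0.821 to 0.888. As listed, 5×FAD 3 was the highest of the 6 mice in 1231 regions and the lowest in 78. After 1 factor per mouse had set all core medians equal (called the core scale below), it stood more than 2-fold above the median of the other mice in 148 regions and more than 2-fold below in 138, against at most 14 and 19 for any other mouse. Its peaks in core regions had a median listed false discovery rate of 100%, while the other mice ranged from 29.2% to 60.8%. Over all 6 mice 3 of 10414 core peaks had a listed rate under 5%, so presence in the core rests on the caller's p-value and not on this rate. Its values also followed base content in another way. FE rose with GC content in the other 5 mice (Spearman 0.163 to 0.253 over 1730 regions) and fell slightly in 5×FAD 3 (−0.0958), whereas the relation with cytosine alone kept its sign in all mice (0.137 in 5×FAD 3, 0.211 to 0.299 in the others). These correlations describe regions that share a library. A value without 5×FAD 3 is given below for some results only, and every mean over the 6 mice includes this mouse.

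**Figure D4:**
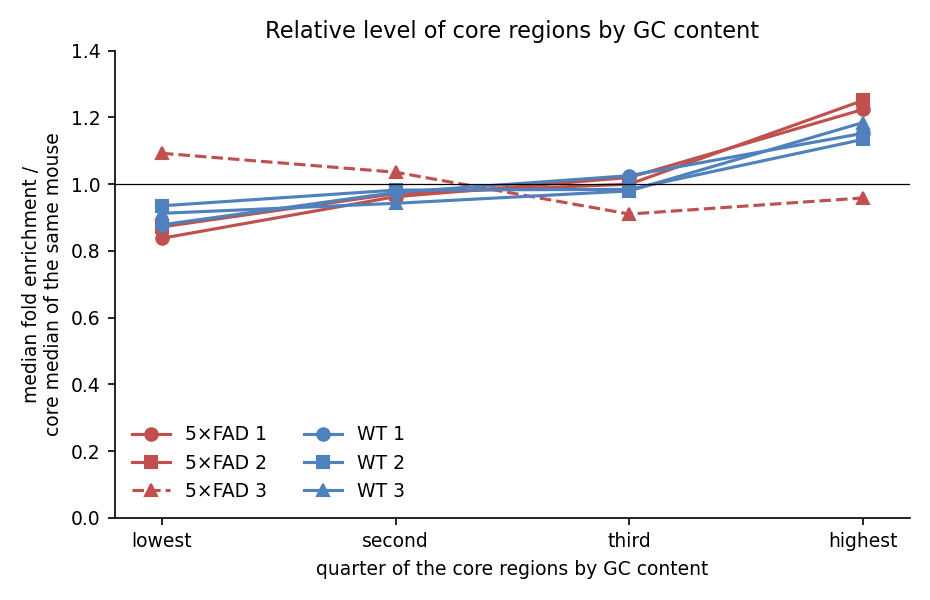
Median fold enrichment of core regions in 4 equal classes by GC content (x axis), divided by the core median of the same mouse (y axis), 5×FAD in red and WT in blue. In 5×FAD 3 the value is 1.09 in the lowest and 0.959 in the highest class. In the other 5 mice it runs from 0.838 to 0.935 in the lowest and from 1.13 to 1.25 in the highest.

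The mean FE of a core region over the 6 mice ran from 4.32 to 99.7, with quartiles of 8.62 and 16.5, and 24 regions reached 50. The strongest was the start codon exon of Cpeb2, which binds cytoplasmic polyadenylation elements and regulates translation, at chr5:43233463-43235088. Its FE was 136, 124 and 68.1 in the 5×FAD mice, against 95.6, 98.5 and 75.8 in the WT mice, and the genotypes overlapped. Clstn1, a calsyntenin of synaptic membranes, had 119, 114 and 84.6 in the 5×FAD mice and 94.8, 95.2 and 80.4 in the WT mice in its start codon exon, again with overlap. Among the 10 strongest regions 5 were start codon exons, those of Cpeb2, Lta4h, Clstn1, Tmem184b and Tmem135. Syn1, the synaptic vesicle protein synapsin I, stood sixth with its stop codon exon at 78.3, 58.5 and 188 in the 5×FAD mice and 64.4, 41.0 and 34.7 in the WT mice. In Syn1 only 5×FAD 3 stood far from the rest, and 5×FAD 2 lay below WT 1. Cacna1a, the pore of the P/Q-type calcium channel of presynaptic terminals, had 83.0, 81.6 and 124 in the 5×FAD mice and 56.7, 56.5 and 40.4 in the WT mice in 1 coding exon, without overlap. Arhgap17, a GTPase-activating protein, Sobp and the peptidase Dpp9 completed the 10, with means of 75.3, 73.6 and 72.0.

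At the lower end stood the start codon exon of Rpl28, a protein of the large ribosomal subunit, with 4.92, 4.27 and 6.07 in the 5×FAD mice and 3.91, 3.85 and 2.90 in the WT mice. Next came the stop codon exon of Wfs1, a membrane protein of the endoplasmic reticulum, with a mean of 4.49, and the coding exons of Faf2, Ogdhl and Syne1 shown above, with means of 4.50, 4.57 and 4.68. These regions had a peak in every mouse despite an FE that was under the median of the peaks outside the core in all 6 mice.

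Most genes carried 1 core region (1053 of 1337), 208 carried 2, 50 carried 3, 20 carried 4, 5 carried 5 and 1 carried 6. That 1 was Phc2, a subunit of Polycomb repressive complex 1, whose 6 regions lay between chr4:128654702 and chr4:128745131, with mean FE from 8.85 to 17.2. Summed over its 6 regions, Phc2 stood at 97.6, 79.7 and 115 in the 5×FAD mice against 65.5, 62.4 and 47.3 in the WT mice, without overlap. The genes with 5 were the forkhead factor Foxp1, Wfs1, Sap130 of the Sin3 co-repressor complex, the adhesion protein Sdk2 and the Arf GTPase-activating protein Agap1. Regions of 1 gene could differ widely: in Foxp1 the mean FE ran from 9.73 to 51.5 and in Wfs1 from 4.49 to 26.2, while in Sdk2 it ran from 9.12 to 13.5. The strongest Foxp1 region had 151 in 5×FAD 3 and 19.9 to 43.1 in the other mice. Over the 284 genes with at least 2 core regions the strongest exceeded the weakest by a median of 1.57-fold, and by 2-fold or more in 85 genes. The SD of log2 mean FE between regions of 1 gene was 0.651, over the 677 regions of these 284 genes. Over all core regions, genes with 1 region included, it was 0.727. These sets of regions differ, so the effect of sharing a gene on the level is not read from them.

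On the core scale the coefficient of variation (CV) of a region over the 6 mice had a median of 21.8% and ran from 3.55% to 126%. Without 5×FAD 3 the median was 16.7%. The steadiest region was a coding exon of Apba3, an adaptor of the X11 family, at chr10:81272185-81272397 on the + strand. It had an FE, as listed, of 19.4, 19.2 and 27.9 in the 5×FAD mice and 15.5, 15.8 and 13.2 in the WT mice, so it moved with the core median of each mouse. The start codon exon of Vps37d, a subunit of the ESCRT-I sorting complex, that of Dnajc2, a chaperone of the ribosome, and coding exons of the kinesin Kif26b and the poly(C)-binding protein Pcbp3 followed, with CVs of 3.82%, 4.31%, 4.53% and 4.82%. The least steady were set by 1 mouse each. A coding exon of Zfr, an RNA-binding zinc finger protein, at chr15:12140434-12140652 on the + strand, stood at 12.8, 10.5 and 121 in the 5×FAD mice against 10.9, 11.0 and 8.65 in the WT mice. The same held for Tab2, an adaptor of the kinase TAK1, with 135 in 5×FAD 3 and 8.09 to 12.2 in the other mice, for R3hdm1 with 78.6 and 5.96 to 8.01, and for the scaffold Cnksr2 with 53.2 and 4.23 to 5.32. For Chd5, a neuronal chromatin remodeller, the mouse that stood apart was WT 3, with 39.5 against 6.79 to 9.70 in the others. The steady and the unsteady exon are shown for comparison, with capitals as above, and held 31.5% and 31.1% cytosine.
Apba3: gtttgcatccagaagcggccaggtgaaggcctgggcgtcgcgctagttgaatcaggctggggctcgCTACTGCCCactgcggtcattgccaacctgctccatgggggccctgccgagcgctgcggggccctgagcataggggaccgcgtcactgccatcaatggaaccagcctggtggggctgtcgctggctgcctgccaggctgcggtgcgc
Zfr: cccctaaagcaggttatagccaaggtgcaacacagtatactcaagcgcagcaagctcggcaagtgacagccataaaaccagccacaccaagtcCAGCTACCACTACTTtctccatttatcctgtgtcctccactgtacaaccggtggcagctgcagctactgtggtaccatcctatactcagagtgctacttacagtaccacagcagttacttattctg

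The comparison of genotypes asked whether regions found in every mouse carried more or less signal in 5×FAD. As listed, 678 core regions (39.2%) had all 3 5×FAD values above all 3 WT values, and 4 (0.231%) had them below. Over all 10027 regions found in at least 2 mice of a genotype, where a mouse without a peak counts as 0, these shares were 13.9% and 0.658%. These shares are not like for like, since no core region holds a 0 and a region without a peak in a mouse of each genotype cannot separate. With mice without a peak left out, 50.9% of 8309 regions were higher and 4.38% lower without overlap, some of them on fewer mice, against the same 39.2% and 0.231% in the core. Neither comparison therefore shows whether the higher count sets the core apart. The higher count moved with the median FE of the mice given above. The median log2 difference of log2(FE + 1), 5×FAD minus WT, was 0.49 over the core regions and 0.44 over all tested regions, and 1629 core regions were on the higher side. By limma with the Benjamini-Hochberg adjustment, 0 core regions passed an adjusted p of 0.05 (smallest adjusted p = 0.334), and 0 of all regions tested did (background 0%). At an unadjusted p under 0.05 there were 3 core regions on the higher side and 2 on the lower, against a background of 4.57% and 0.539% of all tested regions. The higher count depended on the fit. It was 421 with mice without a peak left out (24.3%, background 11% higher and 0.132% lower), 126 with a variance trend (7.28%, background 4.51%) and 55 without 5×FAD 3 (3.18%, background 8.35%), while the lower count was 2 in each. On the core scale, which removes any difference shared by the whole core, 119 core regions (6.88%) stood above WT without overlap and 145 (8.38%) below, beside 5.04% and 3.54% of all tested regions, and the split by sign was 842 to 888. With mice without a peak left out, 1316 of 8309 regions were higher and 1957 lower without overlap, some of them on fewer mice. The core counts stayed the same. Here too, neither comparison shows whether these counts set the core apart. Limma again called 0 core regions (smallest adjusted p = 0.0887), and an unadjusted p under 0.05 was reached by 1 core region on the higher side and 2 on the lower, beside 2.88% and 0.778% of all tested regions. With mice without a peak left out of this fit, it was reached by 52 and 77 of 1730 core regions, beside 153 and 265 of 8309 tested regions. At the adjusted threshold 2.26% of all tested regions were called. With the replicate number as a block this last background was 0 and the core count stayed 0.

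The region that stood lowest in 5×FAD was the start codon exon of Lta4h, the hydrolase that makes leukotriene B4, at chr10:93453396-93453668. Its FE was 11.7, 9.11 and 58.0 in the 5×FAD mice, against 144, 144 and 221 in the WT mice. The lowest WT mouse was more than 2-fold above the highest 5×FAD mouse. The log2 difference was −3.09 ± 0.84 (SE; limma, adjusted p = 0.334) as listed and −3.64 on the core scale (adjusted p = 0.0897), and it passed only without 5×FAD 3 (−3.89, adjusted p = 0.0101). The second was the stop codon exon of Dnm2, the ubiquitous dynamin of vesicle scission, at chr9:21506333-21507146, with 5.94, 4.96 and 9.71 in the 5×FAD mice against 29.5, 24.0 and 17.4 in the WT mice. The groups did not overlap, the log2 difference was −1.66 ± 0.57 as listed (limma, adjusted p = 0.482) and −2.18 on the core scale (adjusted p = 0.0887). On the core scale Dnm2 passed without 5×FAD 3 (adjusted p = 0.0136) and with mice without a peak left out of the fit (adjusted p = 0.00966). Only 2 further core regions were lower without overlap as listed, a coding exon of the transcription factor Ebf4 (6.18, 6.61 and 6.74 in 5×FAD; 7.98, 11.3 and 7.53 in WT) and the start codon exon of the guanine deaminase Gda (8.99, 8.46 and 8.86 in 5×FAD; 10.3, 9.24 and 10.3 in WT). On the core scale coding exons of the kinase Mtor and of the sodium leak channel Nalcn joined the lower side. Mtor had 11.5, 11.6 and 11.6 in the 5×FAD mice and 16.2, 18.2 and 11.1 in the WT mice as listed, and Nalcn 6.71, 7.35 and 8.22 in 5×FAD against 11.9, 9.31 and 7.76 in WT. As listed the genotypes overlapped in both.

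On the higher side the smallest p belonged to the start codon exon of Fyb, a signalling adaptor of immune cells that is used as a microglial marker here. Its FE was 25.8, 14.7 and 22.1 in the 5×FAD mice, against 5.88, 5.70 and 4.87 in the WT mice. The log2 difference was 1.72 ± 0.54 (SE; limma, adjusted p = 0.482) as listed and 1.23 on the core scale. Tgfb1, a cytokine made by microglia among other cells, had 16.5, 18.5 and 14.2 in the 5×FAD mice and 6.39, 6.33 and 3.61 in the WT mice in its start codon exon, a log2 difference of 1.46 ± 0.55 (adjusted p = 0.482). Both stood apart between genotypes without 5×FAD 3 being the highest mouse. FE is a ratio to input and not a measure of RNA level, and the tables hold none. In whole tissue, a larger captured share of an RNA, more cells of a type and more of an RNA per cell cannot be told apart here. A coding exon of Nfatc1, a transcription factor controlled by calcineurin, had 31.6, 30.5 and 37.3 in the 5×FAD mice and 12.6, 13.3 and 9.58 in the WT mice (log2 difference 1.42 ± 0.52, adjusted p = 0.482). Kcnh2, a voltage-gated potassium channel, had 27.5, 25.3 and 38.4 in a coding exon in the 5×FAD mice and 12.1, 10.6 and 12.9 in the WT mice. Rrbp1, a ribosome-binding protein of the endoplasmic reticulum, had 30.1, 35.7 and 49.3 in a 5′ UTR exon in 5×FAD against 15.3, 16.1 and 14.0 in WT. Zfhx3, a transcription factor, and Wasf2, an activator of actin branching, followed on the core scale, with 25.03, 25.1 and 41.0 in 5×FAD against 12.4, 13.0 and 9.89 in WT and with 13.6, 13.1 and 20.2 in 5×FAD against 6.39, 6.01 and 5.65 in WT. The genotypes did not overlap in any of these 7 regions, and none passed the adjusted threshold.

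**Figure D5:**
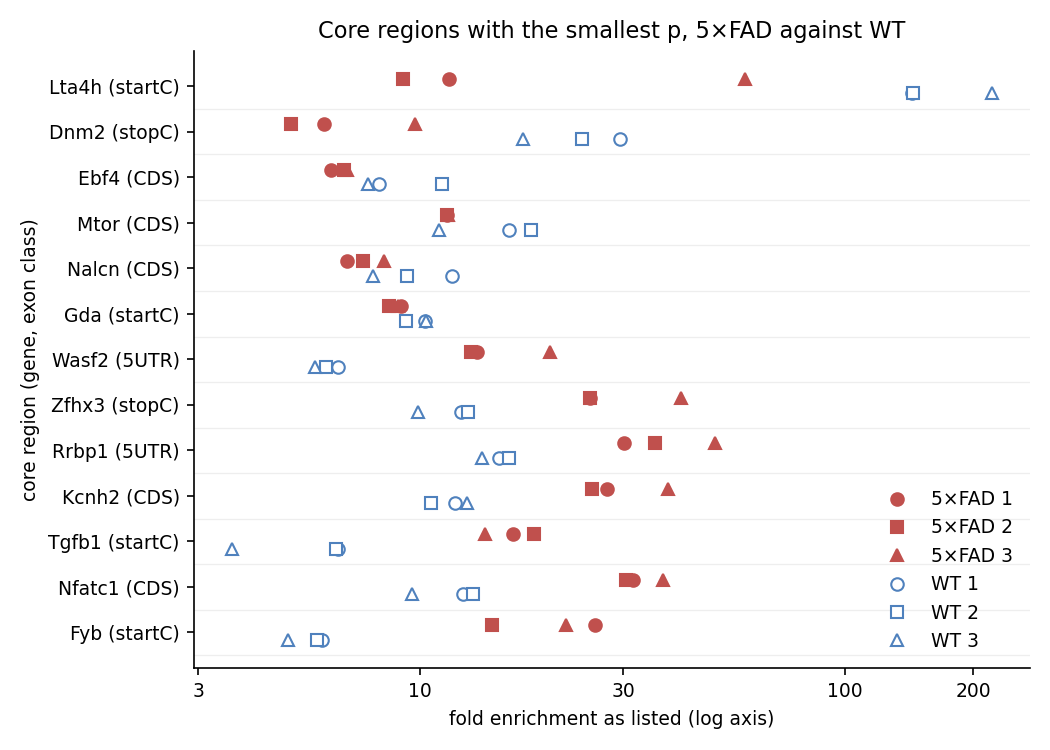
Fold enrichment as listed (x axis, log scale) in each mouse for the 13 core regions with the smallest limma p and no overlap between genotypes, as listed or on the core scale, with 5×FAD in filled red and WT in open blue symbols. Lta4h is at 9.11 to 58.0 in 5×FAD and 144 to 221 in WT, Fyb at 14.7 to 25.8 in 5×FAD and 4.87 to 5.88 in WT. None of the 13 passed an adjusted p of 0.05 over all 10027 regions tested.

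Genes of synapses and ion channels were among those with core regions. Among the genes with a peak in any mouse, 17.6% (1337 of 7598) carried a core region. The share was 45.2% for voltage-gated channels (14 of 31), 37.5% for the presynaptic active zone and vesicle cycle (15 of 40) and 31.4% for glutamate receptors and the postsynaptic density (11 of 35). Over all gene lists together it was 28.7% (126 of 439). Outside synapses and channels, it was 39.3% for the chromatin list (22 of 56) and 8.70% for translation factors (2 of 23). These lists were chosen with earlier results of these data known, so the shares are descriptions. Of the channels, 7 were calcium channel pores (Cacna1a, Cacna1b, Cacna1c, Cacna1d, Cacna1g, Cacna1h and Cacna1i), with the regulatory subunit Cacnb1 beside them. Hcn2, a pacemaker channel, had 60.9, 41.3 and 29.9 in the 5×FAD mice and 35.4, 25.6 and 17.3 in the WT mice in its stop codon exon, with overlap. Over the 16 core regions of the channel list the median log2 difference was 0.63 as listed and 0.13 on the core scale, against 0.49 and −0.01 over all core regions, and 10 of 16 stood above WT without overlap as listed, beside 39.2% of all core regions. On the core scale 4 stood above and 1 below, beside 6.88% and 8.38%. Limma called none of them.

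In the presynaptic list, 17 core regions included the scaffold Pclo, the endocytic adaptor Snap91 and the vesicle protein Vamp2 beside Syn1. Pclo had 24.2, 28.2 and 75.8 in the 5×FAD mice and 25.3, 17.95 and 15.8 in the WT mice, with overlap. All 17 had a positive log2 difference as listed, as did 94.2% of all core regions, and their median was 0.66. As listed 6 of 17 stood above WT without overlap, beside 39.2% of all core regions, and on the core scale 0 did and 1 stood below. Dnajc6, the neuronal auxilin that strips clathrin from vesicles, had 7.50, 5.15 and 15.2 in the 5×FAD mice and 5.97, 4.18 and 4.06 in the WT mice in its coding core region, with overlap. In the postsynaptic list the strongest was the 5′ UTR exon of Grik5, a kainate receptor subunit, with 91.8, 65.0 and 43.4 in 5×FAD and 54.6, 63.8 and 49.3 in WT. Dlgap4, a scaffold, carried a coding core region at 39.98, 31.2 and 41.1 in 5×FAD against 28.3, 26.1 and 18.4 in WT. A 5′ UTR core region of Dlgap4 stood at 49.4, 30.3 and 12.2 in 5×FAD against 32.5, 28.8 and 20.0 in WT, with overlap. The NMDA receptor subunit Grin2d carried a stop codon region at 32.1, 29.1 and 21.7 in 5×FAD against 28.4, 25.6 and 21.3 in WT. The other glutamate receptor genes of the list with a core region were Grik3 and Grm2. Grin1, Grin2a, Grin2b, Gria1 and Gria2 had peaks but no core region. Over the 17 regions of this list the median log2 difference was 0.29 as listed and −0.22 on the core scale, 3 stood above WT without overlap as listed, beside 39.2% of all core regions, and 0 above and 1 below on the core scale.

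Of the inhibitory list only Gabbr2, a GABA-B receptor subunit, and Gabra2, a GABA-A receptor subunit, carried a core region (2 of 13 genes with a peak). The cytoskeletal list had 9 of 34, with Myo18a, Kif1b, Sptbn4 and Map2 named by level. Map2, the dendritic microtubule protein, had its core region in a 5′ UTR exon of 78 bp. It stood at 7.20, 7.47 and 58.9 in the 5×FAD mice against 7.91, 6.77 and 6.76 in the WT mice. The groups overlapped, and 5×FAD 3 alone stood above all others.

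The chromatin list held the most core regions of all lists. Of the chromatin list 22 of 56 genes with a peak (39.3%) carried 36 core regions, 27 of them in coding exons, and of the list of mediators, co-regulators and polymerase 15 of 40 (37.5%) carried 31. The acetyltransferase Crebbp had 52.2, 41.4 and 132 in the 5×FAD mice and 39.4, 39.7 and 31.2 in the WT mice in a coding exon, without overlap, and its paralogue Ep300 had 25.8, 21.5 and 117 in 5×FAD against 27.1, 30.9 and 17.6 in WT, with overlap. Ep400 of a histone-exchange complex followed with a mean of 42.8, with 89.9 in 5×FAD 3 and 24.35 to 37.3 in the other mice. The co-repressor Rere carried core regions in its stop codon exon (mean 52.6) and its start codon exon (mean 33.3), and the kinase Hipk2 had a coding region with a mean of 41.7. Hipk2 stood at 103 in 5×FAD 3 and at 21.5 to 37.7 in the other mice. The median log2 difference of the chromatin regions was 0.57 as listed and 0.06 on the core scale, and that of the mediator list 0.48 and −0.04, both close to the core as a whole. RNA-binding proteins (12 of 44 genes) and ubiquitin enzymes (11 of 37) were led by Srrm1, a splicing co-activator, with a mean of 36.5 and Rnf111, a ubiquitin ligase, with 26.7. Both means were raised by 5×FAD 3, with 94.3 against 15.1 to 30.1 in the other mice for Srrm1 and 75.4 against 12.1 to 21.3 for Rnf111. Translation factors were sparse, with core regions in Eif4g3 and Eif2ak1 only (2 of 23, 8.70%). Limma called no region of any of these lists.

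Markers of neurons, glia and vessels were found in the core. Neuronal markers with a core region were Syn1, Syt1, Map2 and Prox1, a factor of dentate granule cells, which had 45.5, 59.4 and 27.6 in the 5×FAD mice and 51.0, 48.4 and 39.2 in the WT mice in a 5′ UTR exon. Astrocyte markers were the glutamate transporters Slc1a2 and Slc1a3 and the bicarbonate transporter Slc4a4 (3 of 9 with a peak), and all 3 stood above WT without overlap as listed, as did 39.2% of all core regions, but overlapped on the core scale. Slc1a2 had 41.7, 37.8 and 53.0 in 5×FAD against 36.9, 33.6 and 21.3 in WT. Of the oligodendrocyte list only Myrf, a transcription factor of myelination, had core regions (1 of 13). Its stop codon exon stood at 47.9, 39.9 and 75.2 in 5×FAD against 31.3, 29.7 and 23.7 in WT and its start codon exon at 40.3, 36.1 and 60.8 in 5×FAD against 28.9, 27.8 and 26.1 in WT. Of the microglial list 2 of 17 had one, Fyb and the purinergic receptor P2ry12, which had 5.40, 5.78 and 28.0 in 5×FAD and 6.61, 6.97 and 4.07 in WT, with overlap. The microglial markers Csf1r, Cx3cr1 and Tmem119 had peaks but no core region, and Trem2, Tyrobp and Aif1 had no listed peak. Eng and Pdgfrb of the vascular list, with 5 regions, and Kl of the choroid plexus list also had one, and no erythrocyte marker did. The part of cell composition in the genotype values was not tested.

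Few genes of Alzheimer disease itself were in the core, 3 of 25 with a peak. Apbb1, which binds the cytoplasmic tail of APP, had 19.2, 19.7 and 32.4 in the 5×FAD mice and 15.2, 9.08 and 7.36 in the WT mice in a 5′ UTR exon, without overlap as listed and on the core scale (log2 difference 1.12 ± 0.59, limma, adjusted p = 0.492). Cd2ap, an adaptor of endocytosis, had 10.9, 11.96 and 15.4 in 5×FAD against 10.4, 7.12 and 5.81 in WT, and Lrp1, an endocytic receptor, 6.40, 6.79 and 7.70 in 5×FAD against 6.70, 6.87 and 6.23 in WT. App had peaks in every mouse, but none of its regions was shared by all. Of the genes for writing ac4C and for acetyl-CoA supply 6 of 13 had a peak and none a core region, and Nat10 had no listed peak.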

How the data were processed

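Anti-ac4C capture, input and IgG libraries were made from hippocampal RNA of 3 5×FAD and 3 WT mice. Per the methods and labels, the authors used FastQC for quality, cutadapt 1.9.3 for trimming, HISAT2 2.04 for alignment to mm10 and MACS for peaks of each mouse, and kept exons of protein-coding genes. The study's text also names an adjusted p under 0.05 and an exclusion of peaks that overlapped IgG peaks. The deposited false discovery rate exceeds 5% for nearly all core peaks, so that threshold does not describe the peaks listed, and whether the IgG step had been applied is not settled. The deposited fold enrichment is a linear ratio of captured over input signal of the same mouse, and the sources do not settle whether IgG was subtracted from it. The deposited score is a multiple of the −log10 of the p-value that MACS gave, and the deposited false discovery rate is in percent. No read counts are given, so depth is unknown and no counting interval was computed.

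Peaks of all mice were merged at 1 bp on the same chromosome and strand, and regions with a peak in all 6 mice were kept as the core. Genotypes were compared on log2(FE + 1) by limma 3.58.1 (R 4.3.3), with 0 for a mouse without a peak. The fit ran over all 10027 regions found in at least 2 mice of a genotype, with Benjamini-Hochberg adjustment over all of them and a call at 0.05. The same fit was repeated after 1 factor per mouse had set the core medians equal (factors 0.932, 1.01 and 0.658 for 5×FAD mice 1 to 3, and 1.14, 1.19 and 1.45 for WT mice 1 to 3). The fit as listed was tested on simulated data: of 200 regions changed by 3 on the log2 scale among 10027, at an SD of 0.346, it called 200, none in the wrong direction, beside 7 unchanged regions. That SD is the median over core regions, and no simulated mouse was set to 0 for a missing peak. The simulation therefore does not show that the real fit finds changes of this size. Lta4h, at a log2 difference of −3.09 ± 0.84 (SE) as listed, was not called. The sequences of 1 chromosome were left out of the base content of short coding regions. Values per mouse were compared by two-sided exact permutation tests. Percentages of each list count the genes with a peak in any mouse as the whole.

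Named were the 10 strongest and 5 weakest core regions, the genes with the most core regions (6 with ties), up to 5 per direction with the smallest p and no overlap on each scale, the 5 with the smallest and the 5 with the largest CV, up to 4 per gene list by mean FE, and a few fixed genes (App, Thy1, Nat10, Grin1, Map2 and Dnajc6, and 1 that is not reported here). Thy1 had no core region. Tenm4, Foxj2, Magi2 and list members beyond these were named after their values were seen. The core, the lists and the naming rule were chosen with earlier results of these data known. Same-numbered mice deviated together over all tested regions (correlations of 0.595, 0.562 and 0.356 for numbers 1 to 3, and −0.393 to −0.147 for other pairs) but not over the core (0.0869, −0.0176 and −0.00563). By the rule the core holds no 0 for a missing peak, while the other tested regions do. This contrast therefore cannot show whether the number affects the core. Alternatives tried were other scales, pseudocounts, merging rules, peak thresholds, the replicate number as a block and leaving out each mouse.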

Additional observations from a re-analysis of the deposited data

How the results depend on the processing

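The number of core regions ranged from 1438, with the 7434 peaks of highest FE in each mouse, to 2256, with 1 mouse left out, around the 1730 reported. The count of core regions called by limma was 0, and without 1 mouse it ranged from 0 to 1, the 1 being Lta4h without 5×FAD 3. The count of core regions higher in 5×FAD without overlap, 678 as listed, was 119 on the core scale, 74 with equal medians of mRNAs found in all mice and 121 after quantile normalization. It ranged from 698 to 985 without 1 mouse. The count lower, 4 as listed, was 145, 205 and 120 on these scales and ranged from 5 to 29 without 1 mouse, with 29 without 5×FAD 3. Leaving out a mouse cannot lower either count, since genotypes that do not overlap stay apart. The ranges without 1 mouse are therefore no check of these counts. The following combined settings were chosen after seeing the data. On the core scale limma called 1 region (Dnm2) with mice without a peak left out and 0 to 2 regions without 1 mouse, the 2 being Lta4h and Dnm2 without 5×FAD 3. On that scale, leaving out 5×FAD 1, 2 and 3 and WT 1, 2 and 3 in turn, the count higher without overlap was 205, 231, 228, 194, 181 and 176, and the count lower 246, 247, 254, 206, 224 and 214. These counts, too, could only stay or rise from those with all mice. The median FE difference ranged from 2.54 to 5.46 without 1 mouse and was 0.53 as a mean of log2 values. With the replicate number as a block it stayed 4.34, with an exact permutation p of 0.25, the smallest this block allows, and the block changed no call in the core. Class shares of core peaks are held nearly equal by the rule. The coding share difference, −0.0758 percentage points, turned to 0.0193 by the class of the highest peak. That of stop codon exons, −0.0353, ranged from −0.1425 to 0.109 without 1 mouse, at 0.109 without 5×FAD 2 and 0.00735 without WT 3. Why the class share differences moved was not tested. The log2 differences of the 13 regions with the smallest p kept their sign under all 24 alternatives tried. These regions were picked by small p and no overlap in the same data. Several alternatives, such as the block or the variance trend, cannot change a difference in the core. The kept sign is therefore no separate support. Since depth is unknown, a region absent in a mouse has no limit on its level.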
